A study of Mus musculus with 24 samples.

Results

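The end of milk secretion was described by comparing small RNA of involuting glands with that of lactating glands. The members are the 12 libraries labelled involution day 3 (Inv3, 6 mice) and lactation day 7 (Lac7, 6 mice), of 24 libraries in the whole series, and each of the 480 miRNAs, of 1009 listed, whose mean reached 1 RPM at either stage. All mice were C57/BL6 females, an inbred strain, and no allele or agent distinguishes the groups. The remaining libraries of the series come from adult mice and from pregnant mice. RNA came from whole homogenates of abdominal and inguinal glands, so epithelium, fat, stroma, blood and any attached lymph node or muscle were measured together, and the age of the mice at Lac7 and Inv3 is not given in the sources used here. The design text of the series gives the days of lactation and involution the other way round from the labels, and the labels were followed.

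During lactation the alveoli of the gland are lined by secretory epithelial cells, and when suckling stops these cells die and are cleared while the stroma, its blood vessels, fat and immune cells are rebuilt. A miRNA is a short RNA that guides a silencing complex to messenger RNAs, chiefly through its seed, the bases near its 5′ end that pair with the target. Members of a family share a seed, and each hairpin precursor gives a 5p arm and a 3p arm, of which one is usually more abundant.

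The authors deposited reads scaled to a common total over the listed miRNAs (RPM), from which whole reads could be recovered. The Lac7 libraries held 660346 to 751890 reads and the Inv3 libraries 722068 to 1165321. A single read was therefore worth 1.33 to 1.51 RPM at Lac7 and 0.858 to 1.39 RPM at Inv3, and a true level of up to 3 reads can give a count of 0, or 3.99 to 4.54 RPM at Lac7 and 2.57 to 4.16 RPM at Inv3. These limits cover counting error only, because it is not stated whether molecular identifiers were counted. Since every library has the same total, a rise of abundant miRNAs lowers the RPM of all others. In bulk tissue, fewer cells of a type and less RNA per cell cannot be told apart.

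Some libraries stood apart within their stage, which bears on all that follows. The 4 skeletal muscle miRNAs listed (miR-1a-3p, miR-133a-3p, miR-133b-3p and miR-206-3p, all 4 measured) summed to 104 RPM in Lac7 mouse 4 and 117 RPM in Lac7 mouse 5, against 2276 to 5001 RPM in Lac7 mice 1, 2, 3 and 6. The same Lac7 mice 4 and 5 had the highest sums of the 5 myeloid and leukocyte miRNAs at that stage, 16352 and 15406 RPM, against 5784 to 9086 RPM in the other 4 mice. They were thus low in muscle miRNAs and high in leukocyte miRNAs together. At Inv3 the 10 miRNAs of secretory epithelium summed to 27779.6, 31578 and 37905 RPM in mice 2, 1 and 5, and to 77858, 92143 and 98782 RPM in mice 4, 3 and 6. Mouse 5 of Inv3 also had the highest muscle sum of that stage, 947 RPM. The number of calls, the arm pairs, the same-seed pairs and the lists below were therefore also counted without these libraries, a choice made after the values were seen. For a list whose sums set the mice apart, the shift without those mice follows from the choice and is no check of the list. Counts of miRNAs without overlap, of seed groups and of genomic groups are for all mice.

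**Figure D1:**
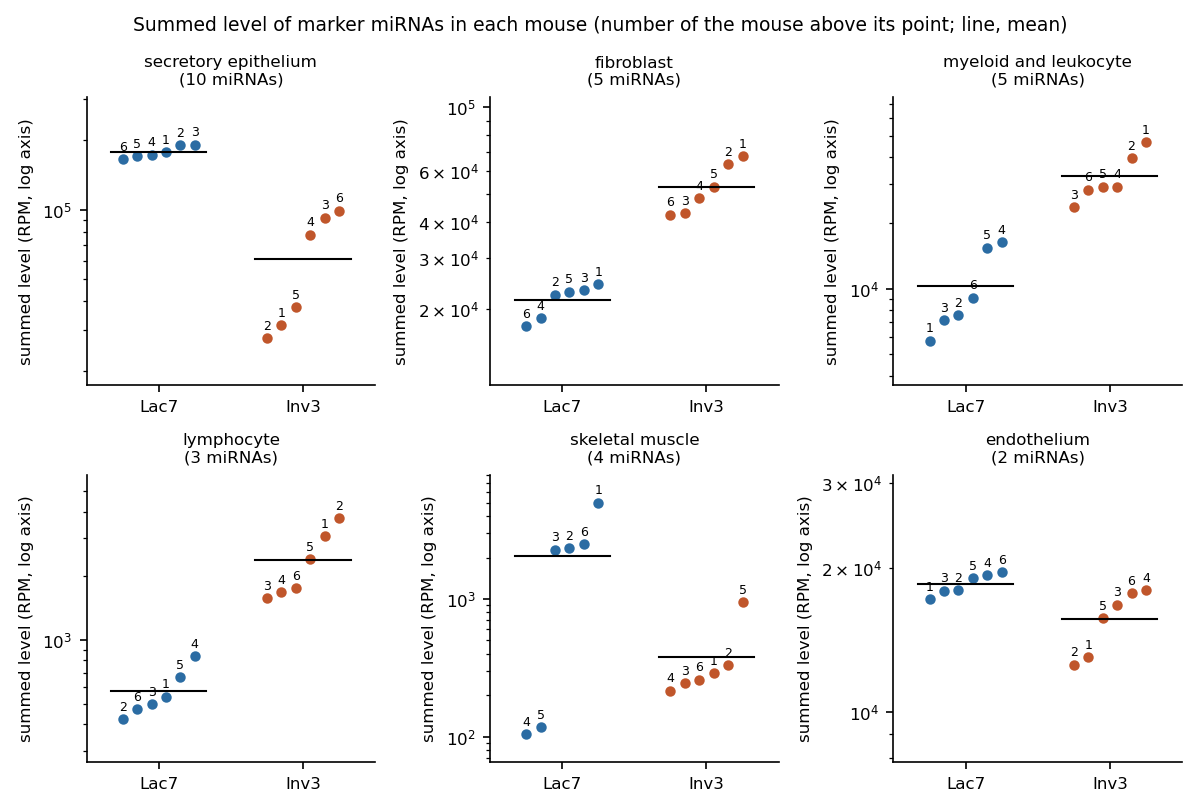
Summed level of listed marker miRNAs (RPM, log axis) in each Lac7 mouse (blue) and Inv3 mouse (orange), with the number of the mouse above its point and a line at the mean of the 6 mice. The secretory epithelium sums at Inv3 run from 27779.6 to 98782 RPM, all under the lowest Lac7 mouse at 165067 RPM, and the muscle sums of Lac7 mice 4 and 5 lie under every other mouse.

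Between Lac7 and Inv3 most listed epithelial miRNAs fell and listed miRNAs of fibroblasts, leukocytes and lymphocytes rose. With limma on log2(RPM + 1), a call needed a two-sided p under 0.05 after Benjamini-Hochberg adjustment over all 480 and a log2 fold change of 1 or more in size, and this scale understates changes of miRNAs near 1 RPM. In this way 29.8% of the 480 miRNAs were called, 87 of them higher at Inv3 (18.1%) and 56 lower (11.7%). The counts of each list and group below are to be read beside these shares. The balance differs from that of the authors, who reported a majority of downregulated miRNAs between lactating and involuting glands. They used DESeq2 with the same limit on the log2 fold change and another limit on the false discovery rate. The cause of the difference in balance was not tested. Without the limit on the fold change 245 miRNAs (51.0%) had an adjusted p under 0.05. The 6 mice of one stage did not overlap those of the other for 135 miRNAs (28.1%), of which 89 were also called. Without Lac7 mice 4 and 5, 93 miRNAs were called higher and 59 lower of 488, and without Inv3 mice 1, 2 and 5 73 and 31 were called of the 474 that passed the filter then. Among miRNAs averaging 100 RPM or more over the 12 libraries the directions were near balance, with 23 called higher and 25 lower, and from 1000 RPM they were 12 and 13 of 62. The median log2 fold change of all 480 was 0.31 on RPM, 0.22 on values scaled by DESeq2 size factors and 0.27 with the TMM factors of edgeR, so the median of each list below is to be read beside 0.31. This value depends on the filter, since 61 of the 480, of which 20 were called, reached 1 RPM at Inv3 alone. It was 0.13 over the 419 miRNAs that reached 1 RPM at Lac7 and 0.22 over the 443 whose mean over the 12 libraries did.

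Mice of Inv3 varied more than mice of Lac7. Over the miRNAs averaging 100 RPM or more, the median SD of log2(RPM + 1) was 0.33 among the 6 Inv3 mice and 0.18 among the 6 Lac7 mice, and 105 of them had the larger SD at Inv3.

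The order of the most abundant miRNAs differed between the stages. Here and below, a level is the median of the 6 mice of a stage, with the lowest and the highest mouse in parentheses. miR-143-3p, a miRNA of smooth muscle and pericytes, was the most abundant at both, with 139004 RPM (128704 to 148114) at Lac7 and 235976 RPM (212944 to 295263) at Inv3. It was higher at Inv3 in all 6 mice, but under the fold limit (log2 fold change 0.82, standard error 0.11, limma adjusted p = 2.4e-05). Its mean share of the library went from 13.9% to 24.6%. let-7c-5p had 111642 RPM (99247 to 139372) at Lac7 and 87591 RPM (75927 to 96431) at Inv3, and let-7a-5p had 81617 RPM (68567 to 98346) and 57534 RPM (46343 to 63587), both without overlap and under the fold limit. miR-16-5p, a member of the miR-15 family that restrains the cell cycle, lay at 63462 RPM (58956 to 68485) and 91300.1 RPM (79632 to 107348), or 0.52 in log2 fold change (standard error 0.10, limma adjusted p = 7.2e-04). Of the 12 most abundant miRNAs, 4 were called lower (miR-200a-3p, miR-103-3p, miR-146b-5p and miR-148a-3p), 2 were called higher (miR-199a-3p and miR-142b), and 6 lay under the fold limit (miR-143-3p, let-7c-5p, miR-16-5p, let-7a-5p, miR-27b-3p and miR-29a-3p).

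The share of the 10 most abundant miRNAs in the reads of a library was 65.5% ± 0.644 at Lac7 and 66.7% ± 2.45 at Inv3 (SD, n = 6 mice each), a difference of 1.22 percentage points that did not pass a two-sided exact permutation test over all divisions of the mice (p = 0.26). For the 5 most abundant the shares were 47.3% ± 0.911 and 51.2% ± 2.29 (exact permutation test, p = 0.0043). The 20 most abundant took 82.56% ± 0.692 and 82.85% ± 1.24, which did not pass (exact permutation test, p = 0.64). The 10th place decided the sign of the difference for the 10 most abundant. Ranked by the mean over the 12 libraries, miR-29a-3p held it ahead of miR-148a-3p, whose mean share was 4.62% at Lac7 and 0.908% at Inv3. With the same 10 kept, leaving out Inv3 mouse 1 gave 1.94 percentage points (exact permutation test, p = 0.039), and with the 10 chosen again after leaving out any 1 Inv3 mouse miR-148a-3p entered and the difference was -4.57 to -3.36 percentage points.

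Most miRNAs listed for secretory epithelium fell. Of the 10, all were measured, 9 were called lower and none higher, with a median log2 fold change of -1.62 against 0.31 over all 480. Their sum was 165067 to 191352 RPM over the Lac7 mice and 27779.6 to 98782 RPM over the Inv3 mice. Without Inv3 mice 1, 2 and 5, 5 of the 10 were called lower and the median was -1.03. Those mice were chosen for the lowest sums of this list, so the smaller fall without them followed from that choice. Without Lac7 mice 4 and 5 the numbers were 9 and -1.65.

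The miR-200 family maintains the epithelial state by repressing the transcription factors Zeb1 and Zeb2. All 5 of its more abundant arms were called lower, and 2 of them, miR-200b-3p and miR-141-3p, without Inv3 mice 1, 2 and 5. miR-200a-3p, the most abundant, had 73920.3 RPM (62672 to 82433) at Lac7 and 29694 RPM (12214 to 53996) at Inv3 (log2 fold change -1.45, standard error 0.31, limma adjusted p = 0.0014). miR-200b-3p, from the same precursor transcript, went from 31741 RPM (26942 to 34464) to 9839 RPM (6768 to 16315), or -1.64 in log2 fold change (standard error 0.22, limma adjusted p = 2.8e-05). The third hairpin of that transcript gives miR-429-3p, at 2099 RPM (1839.9 to 2296) and 739 RPM (392 to 1091), or -1.59 in log2 fold change (standard error 0.24, limma adjusted p = 7.0e-05). In each of the 3 the Inv3 mice lay below every Lac7 mouse, with mice 1, 2 and 5 lowest for miR-200a-3p. miR-141-3p, of the second locus, fell furthest, from 6509.6 RPM (5838 to 6844) to 1150.5 RPM (454 to 1954), or -2.70 in log2 fold change (standard error 0.32, limma adjusted p = 7.7e-06). Its neighbour miR-200c-3p had 9206 RPM (6836 to 10155) and 3744 RPM (2504 to 6855), or -1.09 in log2 fold change (standard error 0.22, limma adjusted p = 8.2e-04), and here the highest Inv3 mouse lay above the lowest Lac7 mouse. Without Inv3 mouse 1 its log2 fold change was -0.94, under the fold limit. The 5 sequences fall into a pair of seed groups that differ within the seed and are shown because the family fell in both groups (5′ to 3′, seed bases 2 to 8 in capitals, from RefSeq GRCm38.p6, whose table held 410 of the 480 names tested).
miR-200a-3p: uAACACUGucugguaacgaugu
miR-141-3p: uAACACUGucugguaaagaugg
miR-200b-3p: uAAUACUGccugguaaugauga
miR-200c-3p: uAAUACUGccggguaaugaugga
miR-429-3p: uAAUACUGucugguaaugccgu

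The loci of the family lie on different chromosomes. Mir200a, Mir200b and Mir429 lie within 156053905 to 156055750 of chromosome 4 (GRCm38, minus strand, counted from 1), in an intron of Ttll10, and Mir141 and Mir200c within 124717914 to 124718390 of chromosome 6 (minus strand), in an intron of the antisense RNA Gm15884. Of the less abundant 5p arms, miR-141-5p (-1.76) and miR-200a-5p (-1.74) were called lower, and without Inv3 mice 1, 2 and 5 the former lay under the fold limit (-0.85). miR-200b-5p had a log2 fold change of -0.62 (adjusted p = 0.12) and miR-200c-5p, at 0 to 12.5 RPM at Inv3, one of -0.55 (adjusted p = 0.41). The fifth 5p arm did not pass the filter.

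miR-182-5p, miR-96-5p and miR-183-5p are made from one transcript in sensory and other epithelial cells. miR-182-5p fell from 6656 RPM (5808 to 7101) to 2073 RPM (1122 to 3498), or -1.73 in log2 fold change (standard error 0.26, limma adjusted p = 7.0e-05), and miR-96-5p from 482 RPM (364 to 571) to 187 RPM (85.7 to 303), or -1.52 in log2 fold change (standard error 0.30, limma adjusted p = 6.7e-04). miR-183-5p had 1103 RPM (960.2 to 1148) and 776 RPM (306 to 1227), overlapped, and did not pass the test (adjusted p = 0.07). The other arm of its hairpin, miR-183-3p, was called lower (-1.32). Without Inv3 mice 1, 2 and 5 miR-96-5p lay under the fold limit (-0.80). Their hairpins lie on chromosome 6 between 30165918 and 30169737.

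miR-148a-3p, an abundant miRNA of milk and liver that targets the DNA methyltransferase Dnmt1, was at 46970.1 RPM (42158 to 49878) at Lac7 and 9648 RPM (2810.1 to 15195) at Inv3 (log2 fold change -2.66, standard error 0.37, limma adjusted p = 4.1e-05). At Inv3 it had 3405, 2810.1 and 5579.5 RPM for mice 1, 2 and 5 and 13758, 13717 and 15195 RPM for mice 3, 4 and 6, all far below the lowest Lac7 mouse. Both members that share its seed lay far lower at Lac7 and were not called. miR-148b-3p had 127 RPM (117 to 174) and 82.0 RPM (52.2 to 129), or -0.70 in log2 fold change (standard error 0.21, limma adjusted p = 0.01), under the fold limit, and miR-152-3p had 771 RPM (560.4 to 847) and 549 RPM (432 to 800.5) with an adjusted p of 0.061. Together the 3 took 47109.7 ± 2992 RPM at Lac7 and 9743 ± 5912 RPM at Inv3 (SD, n = 6), nearly all of it miR-148a-3p. Their sequences are given because the seed is the same while the level of 1 member sets the sum.
miR-148a-3p: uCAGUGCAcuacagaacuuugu
miR-148b-3p: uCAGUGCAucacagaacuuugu
miR-152-3p: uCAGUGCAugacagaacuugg

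Among called miRNAs without overlap between the mice, at 10 RPM or more at the higher stage, miR-210-3p decreased most. It is a miRNA induced by hypoxia-inducible factor. It had 730.1 RPM (659 to 835) at Lac7 and 71.0 RPM (22.5 to 137) at Inv3 (log2 fold change -3.63, standard error 0.39, limma adjusted p = 3.7e-06). No Inv3 mouse was above 137 RPM, and mice 1, 2 and 5 had 26.6, 22.5 and 38.1 RPM. Mir210 lies on chromosome 7 from 141221384 to 141221493 (minus strand) outside annotated host genes.
miR-210-3p: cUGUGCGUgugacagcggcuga
Next came miR-375-3p, a miRNA of secretory and endocrine cells, from 982 RPM (844 to 1028) to 123 RPM (35.1 to 392), or -3.10 in log2 fold change (standard error 0.51, limma adjusted p = 1.5e-04). Mice 3, 4 and 6 kept 392, 185 and 306 RPM, and mice 1, 2 and 5 had 39.5, 35.1 and 61.0 RPM.

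Other miRNAs among the 12 largest decreases belonged to the miR-181 genes or were less studied. miR-181b-5p fell from 1440.2 RPM (1215 to 1702) to 313 RPM (222.9 to 397), or -2.21 in log2 fold change (standard error 0.15, limma adjusted p = 1.1e-07), with no overlap. miR-181a-5p, which shares its seed and its transcripts, fell from 1288 RPM (1179 to 1772) to 583 RPM (388 to 813), or -1.29 in log2 fold change (standard error 0.17, limma adjusted p = 2.8e-05), and lay at -0.99 without Inv3 mice 1, 2 and 5. The passenger arms miR-181a-1-3p (-2.03) and miR-181b-2-3p (-1.99) were called lower as well, so that both loci, on chromosome 1 and chromosome 2, were represented. The other passenger arm of each locus, miR-181b-1-3p (-0.98) and miR-181a-2-3p (-0.66), was not called. miR-181c-5p and miR-181d-5p, which come from another locus, were at most 18.02 RPM in any of the 12 libraries and had no detectable change at this depth.
miR-181a-5p: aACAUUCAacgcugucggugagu
miR-181b-5p: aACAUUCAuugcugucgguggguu
miR-190a-5p, from an intron of Tln2, went from 258 RPM (209 to 292) to 50.6 RPM (25.2 to 137), or -2.24 in log2 fold change (standard error 0.35, limma adjusted p = 1.0e-04), and miR-672-5p from 119.6 RPM (101 to 140.4) to 21.6 RPM (15.4 to 37.5), or -2.36 in log2 fold change (standard error 0.21, limma adjusted p = 6.4e-07). miR-3105-5p had 79.2 RPM (60.6 to 93.7) and 21.5 RPM (4.29 to 38.9), or -2.25 in log2 fold change (standard error 0.47, limma adjusted p = 0.001). miR-1968-5p was near the counting limit at Inv3, with 6 reads over the 6 Inv3 libraries and 44 over the 6 Lac7 libraries, a 10.5-fold lower rate (exact 95% interval 4.46 to 30.2, counting error only). The remaining decrease of the 12, miR-144-3p, is given with its partner arm below.

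miR-103-3p and miR-107-3p, which act on insulin signalling in fat and liver and differ at 1 base, were also lower. miR-103-3p had 52753 RPM (46392 to 61038) at Lac7 and 27067 RPM (20548 to 29399) at Inv3 (log2 fold change -1.06, standard error 0.12, limma adjusted p = 3.9e-06), and miR-107-3p had 1823 RPM (1489 to 2011) and 1179 RPM (1008 to 1245), or -0.63 in log2 fold change (standard error 0.11, limma adjusted p = 2.4e-04), under the fold limit. Neither overlapped between the stages, and without Inv3 mouse 1 the log2 fold change of miR-103-3p was -0.99, under the fold limit. Because the sequences differ at 1 base, reads of the rarer member may include misassigned reads of miR-103-3p. Of the 6 miRNAs listed as linked to adipose tissue, 2 were called lower (miR-103-3p and miR-193b-3p) and none higher, with a median of -0.66. Over all 480 miRNAs 11.7% were called lower and 18.1% higher, and the count is a description only. miR-193b-3p had 3 reads or fewer in any library. It lay at -0.99 without Lac7 mouse 1 and had an adjusted p of 0.099 with DESeq2 on recovered reads. miR-103-3p lay at -0.94 without Inv3 mice 1, 2 and 5, and 1 of the 6 was then called.
miR-103-3p: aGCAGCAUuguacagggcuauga
miR-107-3p: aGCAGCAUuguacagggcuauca

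miR-101b-3p was called lower (-1.14) and miR-101a-3p (its name is followed by an @ in the table) was lower without overlap but under the fold limit (-0.51). In the miR-378 family, linked to mitochondria and lipid metabolism, miR-378b was called lower (-1.35), miR-378a-3p and miR-378c were lower under the limit (-0.68 and -0.73), and miR-378d, at 4 reads or fewer, did not pass. Without Inv3 mice 1, 2 and 5 miR-101b-3p and miR-378b lay under the fold limit (-0.996 and -0.79).

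The listed miRNAs of fibroblasts rose. All 5 measured of 6 listed were called higher, none of them with overlapping stages, and the median log2 fold change was 1.296. Their sum was 17423 to 24396 RPM at Lac7 and 42457 to 67649 RPM at Inv3, and without Inv3 mice 1, 2 and 5, which had the highest sums, 3 of the 5 were called, miR-199a-5p (0.89) and miR-214-3p (0.72) lying under the fold limit. miR-199a-3p, the most abundant, had 20869 RPM (15993 to 22734) and 47091 RPM (39372 to 61683) (log2 fold change 1.296, standard error 0.14, limma adjusted p = 3.7e-06). miR-214-3p, encoded with Mir199a-2 in the transcript Dnm3os on the strand opposite Dnm3 (chromosome 1 from 162217814 to 162223477), had 169 RPM (139.7 to 183.2) and 341.6 RPM (227 to 816), or 1.31 in log2 fold change (standard error 0.28, limma adjusted p = 0.0014). Both arms of miR-214 and both arms of miR-199a were called higher, between 1.16 and 1.31. The arms of miR-199a are also encoded by Mir199a-1 on chromosome 9, opposite Dnm2, and cannot be assigned to 1 locus. miR-199b-5p, from another locus, had a log2 fold change of 1.65 (adjusted p = 6.0e-05). miR-145a-5p, which is made together with miR-143-3p, went from 959 RPM (781 to 1108) to 1789.8 RPM (1695 to 2187), or 0.95 in log2 fold change (standard error 0.11, limma adjusted p = 9.6e-06), without overlap and just under the fold limit, and was called higher without Lac7 mice 4 and 5 (1.003).
miR-199a-3p: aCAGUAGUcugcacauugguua

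Leukocyte miRNAs rose. Of the 5 listed for myeloid cells and leukocytes, all were called higher, with a median of 1.73, and their sum was 5784 to 16352 RPM at Lac7 and 23496 to 46789 RPM at Inv3. Their most abundant member over the 12 libraries was miR-142a-5p, made in all blood cell lineages, with 3403 RPM (2804 to 9787) and 12855 RPM (9684 to 18591), or 1.55 in log2 fold change (standard error 0.31, limma adjusted p = 8.2e-04). The highest Lac7 mice, 4 and 5, had 9583 and 9787 RPM, of which the latter lay above the lowest Inv3 mouse, whereas the other 4 Lac7 mice were at 3455 RPM or less. Without Lac7 mice 4 and 5 all 5 were called higher, with a median of 2.28. Those mice had the highest Lac7 sums of this list, so the larger rise without them followed from leaving them out. Without Inv3 mice 1, 2 and 5 all 5 were called higher with a median of 1.47. miR-223-3p, of neutrophils and other myeloid cells, had 807 RPM (706 to 897) and 1760.2 RPM (1598 to 2227), or 1.19 in log2 fold change (standard error 0.12, limma adjusted p = 1.7e-06), and its Lac7 values did not set mice 4 and 5 apart, at 782 and 884 RPM. Its 5p arm was among the 12 largest increases, from 8.21 RPM (4.45 to 16.5) to 41.2 RPM (31.7 to 83.8), or 2.24 in log2 fold change (standard error 0.31, limma adjusted p = 3.6e-05). miR-511-3p, from an intron of the macrophage receptor gene Mrc1, was near the counting limit at Lac7, at 3.41 RPM (0 to 10.5), and had 19.3 RPM (11.1 to 38.6) at Inv3 (log2 fold change 2.24, standard error 0.53, limma adjusted p = 0.0025). Without Inv3 mice 1, 2 and 5 it no longer passed (adjusted p = 0.074).

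The most abundant miRNA that rose with this group was listed as miR-142b, with 7576 RPM (6091 to 22539) at Lac7 and 32206 RPM (25945 to 51558) at Inv3 (log2 fold change 1.78, standard error 0.32, limma adjusted p = 2.8e-04). Mir142b lies on the strand opposite Mir142 on chromosome 11 (87756841 to 87756955, minus strand, with Mir142 at 87756864 to 87756927, plus strand), and at least 16 bases of miR-142b are the reverse complement of miR-142a-3p. The values of miR-142b were 14.1 to 16.7 times those of miR-142a-3p in each of the 12 libraries, and miR-142a-3p itself had 495 RPM (429.4 to 1596) and 2142 RPM (1558 to 3389). The authors used a stranded library kit, but whether strand was used when reads were assigned to miRNAs is not given in the sources used here, so the rise is given for the pair. Both sequences are shown because a run of bases of one is complementary to the other.
miR-142b: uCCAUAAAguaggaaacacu
miR-142a-3p: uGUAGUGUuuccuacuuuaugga
The same holds for miR-3074-5p and miR-24-3p. miR-3074-5p was 9.77 to 11.6 times higher in each library, and neither was called (-0.12 and -0.16).

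Lymphocyte miRNAs rose too, all 3 of the 3 listed being called higher without overlap, with a median of 1.99. miR-150-5p, abundant in mature B and T cells, had 28.9 RPM (13.4 to 123.7) at Lac7 and 199.98 RPM (147 to 482) at Inv3 (log2 fold change 2.54, standard error 0.46, limma adjusted p = 3.6e-04). At Lac7 the highest values were 123.7 and 86.3 RPM in mice 4 and 5. miR-342-3p, from an intron of Evl, had 460.5 RPM (387 to 637) and 1774 RPM (1337 to 3070.2), or 1.99 in log2 fold change (standard error 0.21, limma adjusted p = 2.9e-06), and miR-155-5p, induced on activation of lymphocytes and macrophages, 30.6 RPM (24.1 to 77.1) and 118 RPM (90.9 to 191.7), or 1.70 in log2 fold change (standard error 0.28, limma adjusted p = 1.4e-04). The 3 were called in all fits without Lac7 mice 4 and 5 or without Inv3 mice 1, 2 and 5. Their sum at Inv3 was highest in mice 2, 1 and 5, the mice with the lowest epithelial sums, and whether the share of any cell type had a part in the changes was not tested.

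miR-146a-5p, induced by NF-kB signalling in immune cells and counted in the myeloid list, rose from 3078 RPM (1829 to 4778) to 13307 RPM (10578 to 23198), or 2.19 in log2 fold change (standard error 0.24, limma adjusted p = 3.7e-06). miR-146b-5p, which shares its seed and differs at 2 bases, did the opposite, from 50078 RPM (47442 to 54079.7) to 19495 RPM (5787 to 26279), or -1.78 in log2 fold change (standard error 0.33, limma adjusted p = 4.1e-04). Neither overlapped between the stages. The log2 ratio of miR-146a-5p to miR-146b-5p was -4.89 to -3.31 in the Lac7 mice and -1.23 to 2.003 in the Inv3 mice, a difference of 3.97 (standard error 0.50, limma adjusted p = 1.3e-05). At Inv3 the mice lay on both sides of equal levels, with log2 ratios of 2.003 and 1.20 in mice 1 and 2 and of -1.18, -0.82, -0.27 and -1.23 in mice 3, 4, 5 and 6. The log2 fold change of miR-146b-5p was -0.997, under the fold limit, without Inv3 mice 1, 2 and 5 and Lac7 mice 4 and 5. The genes lie on different chromosomes, Mir146 (which gives miR-146a-5p) on chromosome 11 from 43374397 to 43374461 and Mir146b inside an intron of Mfsd13a at chromosome 19 from 46342762 to 46342870.
miR-146a-5p: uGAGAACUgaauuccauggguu
miR-146b-5p: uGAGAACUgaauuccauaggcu

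Within a family, members of 1 seed can differ in how they change, and this was tested on the log2 ratio of each pair of miRNAs with the same seed that each average 100 RPM or more, a test added after the values were seen. Of 73 pairs, 44 (60.3%) had a ratio that differed between the stages with a limma adjusted p under 0.05 (33 without Lac7 mice 4 and 5 and 38 without Inv3 mice 1, 2 and 5), and 2 held members called in opposite directions. Among the 45 seed groups with 2 or more tested members, 25 had a called member, of which 10 had calls only upwards, 12 only downwards and 3 both. Among the 10, the groups of miR-211-5p and of miR-330-3p held no other called member. Both miRNAs reached 1 RPM at Inv3 alone, so the filter favoured a call upwards. With 29.8% called over all 480, groups of 2 or more can hold a call, and these counts are a description only. The third group with both directions, after those of the pairs described here, was miR-26a-2-3p (1.24) with miR-26b-3p (-1.32), at 6 reads or fewer in each library for the former, and was named after its values were seen.

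The second pair with calls in opposite directions belongs to the family of miR-25, miR-92a, miR-32 and miR-363. miR-32-5p, from an intron of Tmem245 on chromosome 4, fell from 566 RPM (382 to 642) to 257 RPM (171 to 305), or -1.12 in log2 fold change (standard error 0.17, limma adjusted p = 6.9e-05), while miR-92a-3p, of the miR-17-92 cluster known for driving proliferation and of its X-linked homologue, rose from 128 RPM (96.3 to 154) to 242 RPM (167 to 536), or 1.18 in log2 fold change (standard error 0.25, limma adjusted p = 0.0012). The log2 ratio of miR-32-5p to miR-92a-3p changed by -2.29 (standard error 0.35, limma adjusted p = 7.8e-05). miR-363-3p was near the counting limit at Lac7, with 8 reads over the 6 libraries against 102 at Inv3, an 8.9-fold higher rate (exact 95% interval 4.35 to 21.2, counting error only). miR-25-3p, the most abundant, had 4823 RPM (4419 to 4973) and 5600.3 RPM (5381 to 6501) and a log2 fold change of 0.26 (adjusted p = 0.023). Without Inv3 mouse 2 miR-92a-3p lay under the fold limit (0.99), and without Inv3 mice 1, 2 and 5 both did (0.77 for miR-92a-3p and -0.95 for miR-32-5p). The 4 sequences carry the same seed.
miR-25-3p: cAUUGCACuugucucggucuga
miR-32-5p: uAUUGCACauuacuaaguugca
miR-92a-3p: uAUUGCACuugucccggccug
miR-363-3p: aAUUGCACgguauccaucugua

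Smaller shifts of the same kind were seen in other families. miR-27b-3p, which with miR-27a-3p acts on adipocyte differentiation, was at 37125 RPM (34256 to 40506) and 26823 RPM (17959.5 to 30492), a log2 fold change of -0.57, and miR-27a-3p at 437 RPM (392 to 455) and 718 RPM (464 to 886), a log2 fold change of 0.64. Both had an adjusted p of 0.0029 or less and lay under the fold limit, and their log2 ratio changed by 1.21 (standard error 0.11, limma adjusted p = 7.4e-07). miR-23a-3p, the neighbour of miR-27a-3p on chromosome 8, was called higher, from 3940.1 RPM (3628 to 4426) to 10979 RPM (9439.5 to 15751), or 1.55 in log2 fold change (standard error 0.14, limma adjusted p = 8.8e-07). miR-23b-3p, of the miR-27b locus, had a log2 fold change of 0.10 (adjusted p = 0.61), and the ratio of miR-23a-3p to miR-23b-3p was not tested. In the miR-125 family miR-125b-5p rose (log2 fold change 1.77, standard error 0.24, limma adjusted p = 2.8e-05) and miR-125a-5p lay under the fold limit (0.54), and their log2 ratio, miR-125a-5p to miR-125b-5p, changed by -1.23 (standard error 0.11, limma adjusted p = 6.5e-07). For miR-141-3p and miR-200a-3p, both called lower, the change of the log2 ratio was -1.25 (standard error 0.07, limma adjusted p = 3.2e-09), that is, miR-141-3p fell further.
miR-27a-3p: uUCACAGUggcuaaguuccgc
miR-27b-3p: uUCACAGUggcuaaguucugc
miR-125a-5p: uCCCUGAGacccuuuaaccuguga
miR-125b-5p: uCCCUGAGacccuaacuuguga

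**Figure D2:**
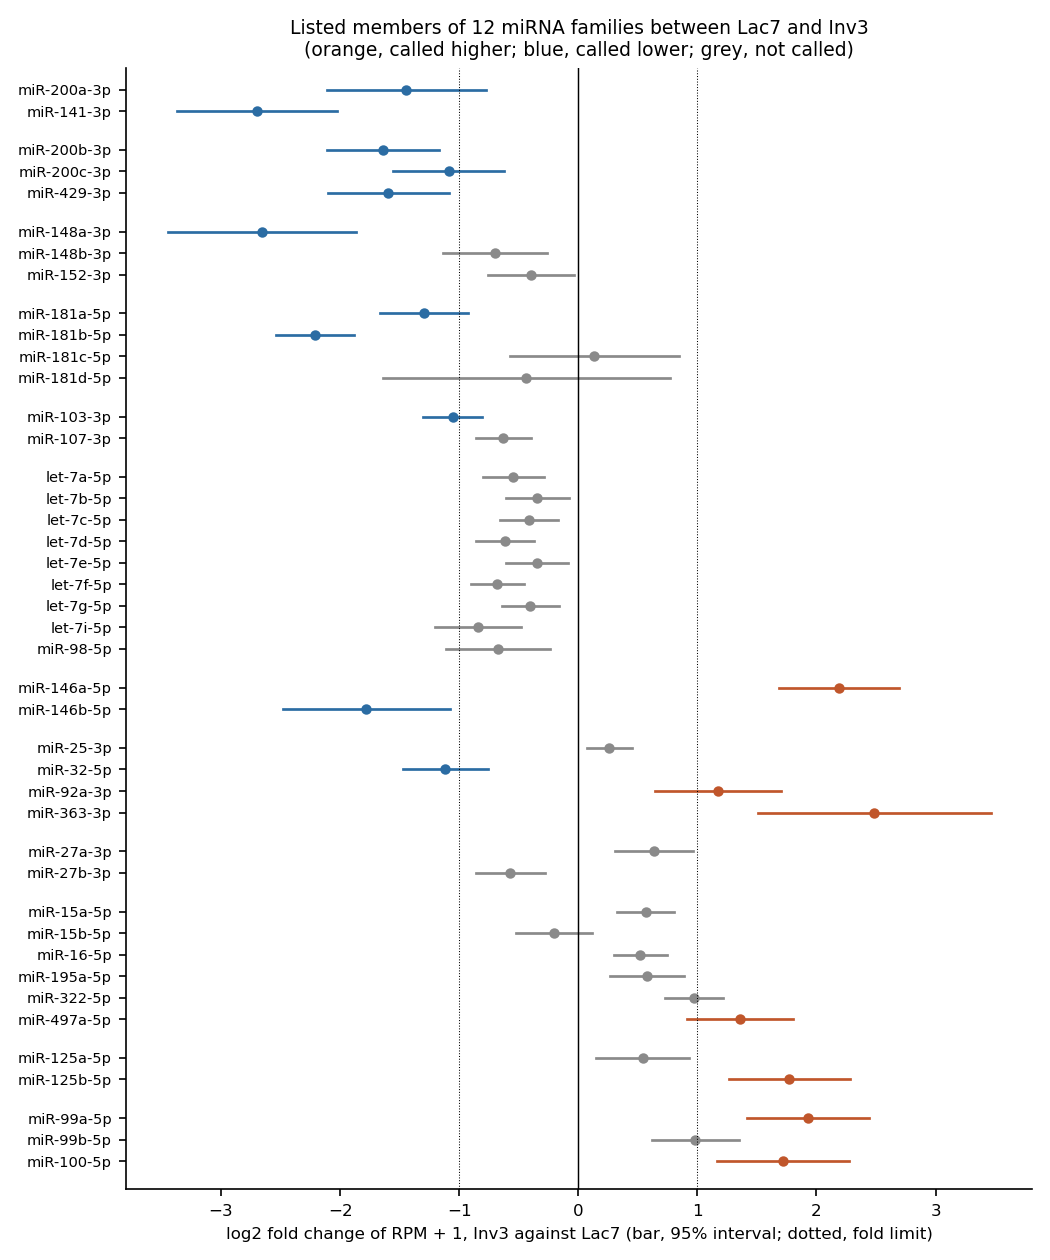
Log2 fold change of RPM + 1 at Inv3 against Lac7 (x axis) for the listed members of miRNA families (y axis, one group of points per family), with 95% intervals from limma as bars, dotted lines at the fold limit, and colours for called higher (orange), called lower (blue) and not called (grey). miR-146a-5p lies at 2.19 and miR-146b-5p at -1.78, and the let-7 members lie between -0.84 and -0.34.

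Both arms of miR-21a, a miRNA that rises in wound repair and inflammation, were called higher. miR-21a-5p went from 10219.8 RPM (9101 to 13038) to 28371 RPM (23915 to 49305), or 1.52 in log2 fold change (standard error 0.16, limma adjusted p = 2.9e-06), without overlap, and Inv3 mouse 1 was highest. miR-21a-3p had 7 reads over the 6 Lac7 libraries and 92 over the 6 Inv3 libraries, a 9.17-fold higher rate (exact 95% interval 4.28 to 23.4, counting error only). Mir21a lies on chromosome 11 from 86584067 to 86584158, overlapping an exon of Vmp1 on the same strand.
miR-21a-5p: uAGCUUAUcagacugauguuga
miR-21a-3p: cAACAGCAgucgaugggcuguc

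miR-205-5p, a miRNA of basal and other stratified epithelial cells, rose from 145.2 RPM (125 to 208) to 583 RPM (407 to 1074), or 2.06 in log2 fold change (standard error 0.25, limma adjusted p = 9.6e-06), against the direction of the miR-200 family. miR-203-3p, which promotes differentiation of keratinocytes and was listed with it, was lower without overlap, at 5062 RPM (4096 to 5531) and 2967 RPM (2302 to 3678), or -0.71 in log2 fold change (standard error 0.13, limma adjusted p = 2.9e-04), under the fold limit. The highest miR-205-5p values at Inv3 were 1074 RPM and 1042 RPM, in mice 1 and 2.
miR-205-5p: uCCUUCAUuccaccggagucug

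The miR-99 and miR-100 miRNAs, which act on mTOR signalling, were higher. miR-99a-5p rose from 97.4 RPM (89.9 to 130.5) to 375.4 RPM (255 to 752), or 1.93 in log2 fold change (standard error 0.24, limma adjusted p = 1.4e-05), and miR-100-5p from 13.5 RPM (12.01 to 21.4) to 46.4 RPM (33.8 to 79.2), or 1.72 in log2 fold change (standard error 0.26, limma adjusted p = 7.8e-05). miR-99b-5p lay just under the fold limit (log2 fold change 0.98, standard error 0.17, limma adjusted p = 2.6e-04) and was called higher without Lac7 mice 4 and 5 (1.04) and without Lac7 mouse 3, 4 or 5 or Inv3 mouse 1, 4 or 6. None of the 3 overlapped, and at Inv3 mice 1, 2 and 5 had the highest sums, 972, 848 and 701 RPM.
miR-99a-5p: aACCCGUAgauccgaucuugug
miR-100-5p: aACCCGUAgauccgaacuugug

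The remaining large increases were of lower abundance. miR-3964 had 21.2 RPM (11.2 to 40.9) at Lac7 and 157 RPM (70.2 to 214.2) at Inv3 (log2 fold change 2.58, standard error 0.33, limma adjusted p = 1.8e-05). It shares a run of 13 bases with miR-142a-5p and differs from it by 4 edits, so some of its reads may belong to that miRNA, whose values were 66.5 to 279.6 times higher in the 12 libraries. miR-350-3p rose from 24.5 RPM (19.7 to 33.5) to 136 RPM (106.6 to 190.5), or 2.39 in log2 fold change (standard error 0.20, limma adjusted p = 4.3e-07). Another 3 of the 12 largest, miR-127-5p (2.29), miR-300-3p (2.17) and miR-411-5p (2.09), come from the imprinted Dlk1-Dio3 region on chromosome 12.
miR-3964: aUAAGGUAgaaagcacuaaa
miR-142a-5p: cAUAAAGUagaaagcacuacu

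That region encodes many miRNAs expressed from the maternal chromosome. Of 81 listed, 78 were in the table and 36 passed the filter, of which 14 were called higher and none lower, with a median of 0.97 (0.91 with size factors). Without Lac7 mice 4 and 5, 12 were called higher, and 11 were without Inv3 mice 1, 2 and 5. Of the 36, 11 reached the filter at Inv3 alone, among them 5 of the 14, and of the 25 that reached it at Lac7, 9 were called higher, with a median of 0.95. Over all miRNAs tested 18.1% were called higher, and of the 419 that reached 1 RPM at Lac7 67 were (15.99%), with a median of 0.13. The sum over all 78 was 319 to 694 RPM at Lac7 and 599 to 1731 RPM at Inv3, and mouse 1 was highest at both stages, which share no mouse. The rodent cluster in Sfmbt2, also imprinted, had 13 of 36 measured members past the filter, none called with all mice and a median of 0.17. In it miR-467a-3p (an @ name) was called higher without Lac7 mice 4 and 5 (1.70), without Inv3 mouse 4 and with edgeR or DESeq2, and miR-467c-5p was called lower without Inv3 mice 1, 2 and 5 (-1.13). Another 3 members were called in fits that leave out 1 mouse, miR-669a-5p (Inv3 mouse 4 or Lac7 mouse 3) and miR-297c-3p (Inv3 mouse 6) higher and miR-466h-5p (Lac7 mouse 1) lower, all named after their values were seen, and the difference between the clusters was not tested.

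The cluster of miR-322 and miR-503 on the X chromosome (Mir322, Mir503, Mir542 and the miR-450 hairpins, 53047997 to 53054349, minus strand) is known from studies of involution in mice. Of the 11 arms from this interval that passed the filter, 1 was called higher (9.1%) and none lower. Their median log2 fold change was 0.15, against 18.1% called higher and a median of 0.31 over all 480. miR-503-5p rose from 22.005 RPM (14.8 to 40.7) to 73.4 RPM (46.8 to 101), or 1.63 in log2 fold change (standard error 0.26, limma adjusted p = 1.4e-04), and miR-351-5p, encoded nearby, from 16.8 RPM (11.2 to 20.1) to 58.1 RPM (39.5 to 74.1), or 1.78 in log2 fold change (standard error 0.21, limma adjusted p = 7.7e-06). miR-322-5p, the most abundant, had 792 RPM (743 to 1031) and 1592 RPM (1407 to 1982), without overlap and just under the fold limit (log2 fold change 0.97, standard error 0.11, limma adjusted p = 7.7e-06). It was called higher without Lac7 mice 4 and 5 (1.04), without Lac7 mouse 5 or without Inv3 mouse 3. Its neighbour miR-542-3p lay on the other side, at 388 RPM (326 to 442) and 249.8 RPM (219 to 312), or -0.59 in log2 fold change (standard error 0.12, limma adjusted p = 0.0011). The arms of 1 cluster thus differed, and miR-450a-5p, at 1.90 to 11.2 RPM at Inv3, had a log2 fold change of -0.03 (adjusted p = 0.96).

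miR-322-5p shares its seed with miR-15, miR-16, miR-195 and miR-497. Of the 6 listed, 1 was called, miR-497a-5p (0.96 and not called without Inv3 mice 1, 2 and 5, while without Lac7 mice 4 and 5 miR-322-5p was called as well), from 397 RPM (261 to 496.8) to 1023 RPM (670.3 to 1496), or 1.36 in log2 fold change (standard error 0.21, limma adjusted p = 8.0e-05). Its neighbour on chromosome 11, miR-195a-5p, was higher under the fold limit (0.58), as were miR-16-5p (0.52) and miR-15a-5p (0.57). miR-15b-5p did not pass (log2 fold change -0.21, adjusted p = 0.26), and the log2 ratio of miR-15b-5p to miR-497a-5p changed by -1.56 (standard error 0.18, limma adjusted p = 5.3e-06).
miR-15b-5p: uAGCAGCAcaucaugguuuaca
miR-16-5p: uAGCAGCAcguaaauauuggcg
miR-497a-5p: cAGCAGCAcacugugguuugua

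In several abundant families no listed member was called, although other arms of some of them were, such as let-7d-3p (1.92) and miR-26b-3p (-1.32). All 9 let-7 and miR-98 members had log2 fold changes between -0.84 and -0.34 and adjusted p under 0.05, and none reached the fold limit. As a sum they took 222841 to 290815 RPM at Lac7 and 149397 to 193539.8 RPM at Inv3. The 5 miR-30 members lay between -0.84 and 0.26 with no call. In the miR-29 family, which targets collagen messenger RNAs, miR-29a-3p was higher without overlap (log2 fold change 0.85, standard error 0.12, limma adjusted p = 5.3e-05) and under the fold limit, while miR-29b-3p (0.10) and miR-29c-3p (-0.02) did not pass, the median of the 3 being 0.10 on RPM and -0.00 with size factors. The sum of the 3 was 17692 to 26816 RPM at Lac7 and 36677 to 44072 RPM at Inv3, without overlap. miR-26a-5p and miR-26b-5p had -0.33 and -0.32, and miR-221-3p and miR-222-3p 0.08 and 0.16. miR-10a-5p (0.68) and miR-10b-5p (0.56), encoded in the Hox clusters, were higher without overlap and under the fold limit.

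Of the miRNAs of other cell types, the endothelial miR-126a-3p had 18213 RPM (16938 to 19312) at Lac7 and 15919 RPM (12293 to 17666) at Inv3 and did not pass the test (log2 fold change -0.26, adjusted p = 0.063), nor did miR-126a-5p (log2 fold change 0.13, adjusted p = 0.4). miR-126a-3p lies opposite miR-126b-5p, which was 106.6 to 136 times lower in the 12 libraries. The other arm of that opposite hairpin, miR-126b-3p, averaged 1749 RPM at Lac7 and 1961 RPM at Inv3. This was above the averages of miR-126a-5p, 258 and 284 RPM. For red blood cells, miR-451a had 641 RPM (543 to 659) and 714 RPM (402 to 939), a log2 fold change of 0.11 with an adjusted p of 0.58. Of the skeletal muscle miRNAs, 2 of 4 were called lower (miR-1a-3p and miR-206-3p) with all 4 overlapping between the stages. miR-1a-3p was 15.96 and 24.2 RPM in Lac7 mice 4 and 5, against 523 to 1357 RPM in the other Lac7 mice, and 30.7 RPM (24.7 to 160.0) at Inv3. Its log2 fold change was -2.36, with a limma adjusted p of 0.0497 with all mice and over 0.05 when any 1 of 9 of the 12 mice was left out, up to 0.12 without Lac7 mouse 1. For miR-206-3p the adjusted p was 0.023, and up to 0.059 without Lac7 mouse 1 among the fits that leave out 1 mouse. With a pseudocount of 0.1 neither passed (limma adjusted p = 0.075 for miR-206-3p and 0.06 for miR-1a-3p). A block for mice of equal number gave miR-1a-3p a limma adjusted p of 0.0598. Without Lac7 mice 4 and 5 all 4 muscle miRNAs were called lower, with a median of -3.37 against -1.88 with all mice. These mice had been set apart by their low muscle sums, so the larger fall without them followed from that choice. miR-133a-3p was also called lower without Lac7 mouse 4 or 5 alone and with edgeR or DESeq2, and miR-133b-3p with edgeR. Without Inv3 mice 1, 2 and 5 none passed the test, with a median of -2.20. miR-1b-5p, encoded opposite Mir1a-2, had still higher values (156 to 12349.7 RPM at Lac7), and whether strand was used to assign reads is not given for this pair either.

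miR-122-5p, a miRNA of hepatocytes, ranged from 0 to 625.6 RPM over the Inv3 mice, with mouse 2 at the top, and from 0 to 54.8 RPM at Lac7, where mouse 6 was highest (log2 fold change 3.96, standard error 1.28, limma adjusted p = 0.018). With a pseudocount of 0.1 it missed the threshold (adjusted p = 0.051). miR-192-5p, also listed for liver and expressed in gut and other epithelia, was called lower, from 1401 RPM (1159 to 1621) to 694 RPM (445 to 924.4), or -1.04 in log2 fold change (standard error 0.18, limma adjusted p = 2.4e-04), and lay under the fold limit without Inv3 mouse 1 (-0.93), Inv3 mouse 5 (-0.96) or Lac7 mouse 2 (-0.998) and without Inv3 mice 1, 2 and 5 (-0.87), while miR-194-5p, encoded beside it on chromosome 19 and also on chromosome 1, had a log2 fold change of 0.20 (adjusted p = 0.2). The neuronal miR-9-5p and miR-124-3p did not pass (0.09 and 0.47).

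The other listed families held calls mainly at low levels. In the family of miR-130 and miR-301, linked to hypoxia and growth, the rarer miR-130b-3p (1.12) and miR-301b-3p (1.36) were called higher and the more abundant miR-301a-3p lay under the fold limit (0.68). miR-130b-3p lay at 0.96 without Lac7 mouse 2, and neither passed without Inv3 mice 1, 2 and 5 (log2 fold changes 0.96 and 1.19, adjusted p = 0.056 and 0.077). miR-132-3p (1.26) and miR-211-5p (1.49) were also called higher, the latter having reached 1 RPM at Inv3 alone, and without these mice had log2 fold changes of 1.02 and 1.34 with adjusted p of 0.063 and 0.082. DESeq2 on recovered reads gave miR-211-5p a log2 fold change of 1.78 and an adjusted p of 0.099. The p53-linked miR-34a-5p (0.99) and miR-34c-5p (0.92) had adjusted p under 0.05 just under the fold limit. miR-34a-5p was called higher without Lac7 mice 4 and 5 (1.10), without Inv3 mice 1, 2 and 5 (1.53), with edgeR, and without Inv3 mouse 1, 2 or 5 or Lac7 mouse 3, 4 or 5, and miR-34c-5p without Inv3 mouse 3 or Lac7 mouse 3. In the miR-17 family miR-20b-5p and miR-106a-5p were called higher, the latter from 2 reads over the 6 Lac7 libraries to 29 over the 6 Inv3 libraries, a 10.1-fold higher rate (exact 95% interval 2.56 to 87.5, counting error only), while miR-93-5p (0.32) and miR-106b-5p (-0.60) lay under the limit and miR-20a-5p (0.01) did not pass. The Hox-cluster miR-196a-5p had 0.52 and miR-365-3p 0.65, both with adjusted p under 0.05 and under the fold limit. Of the red cell list, 1 of 5 was called higher (miR-486a-3p, an @ name as well, 1.66) and 1 lower (miR-144-3p). With 18.1% called higher and 11.7% lower over all 480, these counts are a description only. The sums of the list, 942 to 1095 RPM at Lac7, lay within the 566 to 1176 RPM at Inv3.

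The arms of a hairpin were compared through the log2 ratio of the 5p to the 3p arm, log2((5p RPM + 1)/(3p RPM + 1)). Of 63 pairs with both arms averaging 10 RPM or more over the 12 libraries, 36 (57.1%) had a ratio that differed between the stages with a limma adjusted p under 0.05, 18 with a higher and 18 with a lower 5p share at Inv3. The difference was at least 1 on the log2 scale for 16 of the 36. Without Inv3 mice 1, 2 and 5, 23 of the 63 pairs passed in place of 36. In 57 of the 63 pairs the same arm was the more abundant at both stages. For 10 pairs both arms were called between the stages, and all 10 moved in the same direction.

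The largest shift was that of let-7d, whose log2 ratio was 7.44 at Lac7 and 4.91 at Inv3 (difference -2.54, standard error 0.30, limma adjusted p = 4.7e-06). let-7d-5p was lower under the fold limit, while let-7d-3p rose from 15.0 RPM (10.6 to 20.1) to 53.6 RPM (28.6 to 174), or 1.92 in log2 fold change (standard error 0.33, limma adjusted p = 2.4e-04). Inv3 mouse 2 was highest for let-7d-3p. For miR-423 the ratio was 1.92 at Lac7 and -0.55 at Inv3 (difference -2.47, standard error 0.37, limma adjusted p = 4.1e-05). Here miR-423-3p rose from 6.04 RPM (3.99 to 8.90) to 26.8 RPM (11.4 to 33.6) and miR-423-5p overlapped, so that the more abundant arm on average was the 5p arm at Lac7 and the 3p arm at Inv3.

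miR-144 shifted towards its 5p arm, with a log2 ratio of -2.96 at Lac7 and -0.64 at Inv3 (difference 2.32, standard error 0.21, limma adjusted p = 2.6e-07). miR-144-3p, a miRNA of the red cell lineage, fell from 331 RPM (264 to 371) to 81.5 RPM (62.9 to 101), or -1.97 in log2 fold change (standard error 0.16, limma adjusted p = 3.8e-07). miR-144-5p had 42.5 RPM (26.7 to 50.0) and 57.1 RPM (28.8 to 73.4), a log2 fold change of 0.35 with an adjusted p of 0.24, and miR-451a, encoded beside it on chromosome 11, did not pass either. Of the 3 products measured from these hairpins (78073005 to 78073241), 1 was called.
miR-144-5p: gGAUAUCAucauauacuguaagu
miR-144-3p: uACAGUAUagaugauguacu

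In the miR-17-92 cluster (chromosome 14 from 115043671 to 115044506, in exons of Mir17hg), the ratio of miR-17 was 0.08 at Lac7 and -2.11 at Inv3 (difference -2.19, standard error 0.26, limma adjusted p = 4.7e-06). miR-17-3p rose from 48.3 RPM (46.4 to 84.5) to 228 RPM (161 to 262), or 1.98 in log2 fold change (standard error 0.18, limma adjusted p = 8.9e-07), whereas miR-17-5p, the arm with the seed of the family, had 58.2 RPM (44.9 to 77.1) and 50.8 RPM (36.2 to 70.6), a log2 fold change of -0.20 with an adjusted p of 0.4. miR-106b, encoded in Mcm7 on chromosome 5, changed in the same direction, with 3.20 at Lac7 and 1.61 at Inv3 (difference -1.59, standard error 0.35, limma adjusted p = 0.0013). The log2 ratios of the 6 Inv3 mice lay apart from those of the 6 Lac7 mice for let-7d, miR-423, miR-144 and miR-17, and overlapped for miR-106b.
miR-17-5p: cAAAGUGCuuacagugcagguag
miR-17-3p: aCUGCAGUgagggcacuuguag

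**Figure D3:**
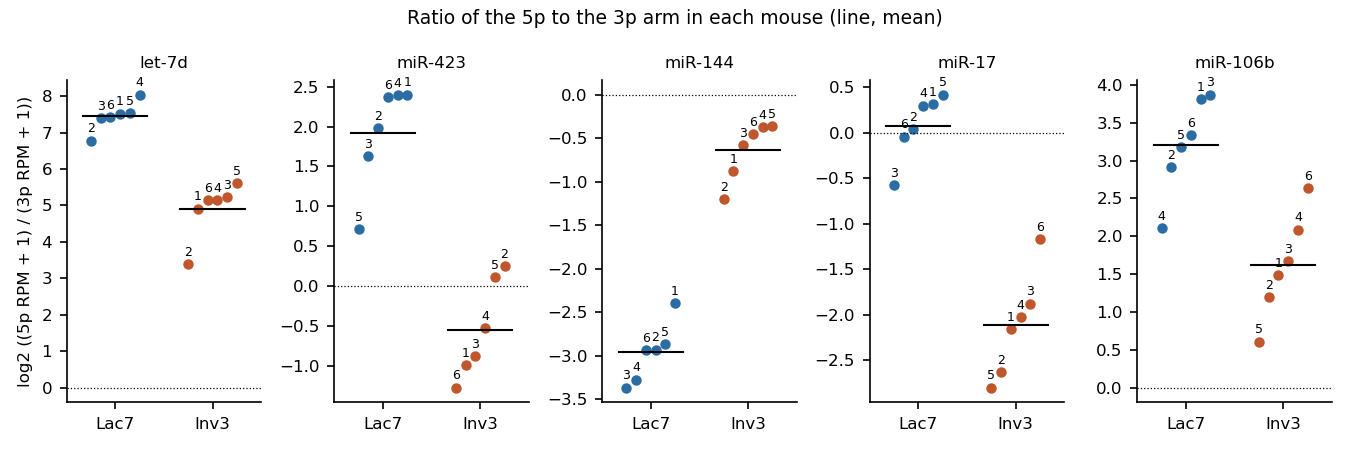
Log2 ratio of the 5p to the 3p arm, log2((5p RPM + 1)/(3p RPM + 1)) on the y axis, in each Lac7 mouse (blue) and Inv3 mouse (orange) for the pairs with the largest differences, with the number of the mouse above its point, a line at the mean of 6 mice and a dotted line at equal arms. For miR-17 the Lac7 mice lie at -0.58 to 0.42 and the Inv3 mice at -2.81 to -1.17.

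Hairpins that lie within 10000 bases of each other on 1 strand can be made from 1 transcript. Of 37 such groups with 2 or more hairpins of tested miRNAs, 24 had a called member, 13 with calls only upwards, 10 only downwards and 1 in both directions. Since groups of 2 to 23 members can hold a called miRNA with 29.8% called over all 480, the counts are a description only. The exception held let-7e-3p (1.16) and miR-125a-3p (-1.42), named after their values were seen, and let-7e-3p, which reached 1 RPM at Inv3 alone, had 1 read over the 6 Lac7 libraries and 11 over the 6 Inv3 libraries. Arms of paralogous hairpins that give the same mature sequence were counted in each of their groups. The X-linked group of Mir106a, Mir20b and Mir363 (chromosome X from 52741693 to 52742567) had 4 members called higher of 7, among them miR-20b-5p, from 2.90 RPM (1.34 to 21.3) to 28.2 RPM (20.8 to 46.3), or 2.63 in log2 fold change (standard error 0.48, limma adjusted p = 3.6e-04). Another of the 4, miR-106a-5p, reached 1 RPM at Inv3 alone, and a further one, miR-92a-3p, is also encoded on chromosome 14.

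At the call limits, the nearest called miRNAs were miR-30c-2-3p (log2 fold change -1.01) and miR-218-5p (1.02), and the nearest miRNAs with an adjusted p under 0.05 that were not called were miR-106b-3p (0.99) and miR-466k (0.99). Of the 12 fits that leave out 1 mouse, the call changed in 5 for miR-30c-2-3p, 4 for miR-218-5p, 5 for miR-106b-3p and 3 for miR-466k.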

How the data were processed

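Small RNA of 12 mammary gland libraries, 6 at Lac7 and 6 at Inv3, was compared. The authors trimmed reads with Trimmomatic 0.36 and cutadapt, assigned them with QuickMIRSeq to miRBase and deposited values in RPM. Dividing each value by the smallest step of its library gave whole reads for 100% of values (tolerance 0.1 read). The members and lists were chosen with earlier results of these data known.

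The 480 miRNAs averaging 1 RPM or more at either stage were fitted with limma 3.58.1 (trend) in R 4.3.3 on log2(RPM + 1), and the calling was tested on simulated data. Other steps used edgeR 4.0.16, DESeq2 1.42.0, scipy 1.17.1, pandas 2.3.3, numpy 2.4.6 and matplotlib 3.10.9 in python 3.11.15. The set called the named miRNAs here held the 12 most abundant miRNAs, and the 12 largest increases and 12 largest decreases among called miRNAs without overlap and at 10 RPM or more. It also held list members that passed the filter, the 5 largest called arm differences and the miRNAs nearest to the limits. Some list members are not described singly above, among them miR-19a-3p, miR-19b-3p, miR-204-5p, miR-34b-5p and miR-196b-5p, none of them called with all mice. Lists of more than 30 members are given by counts, a limit chosen after the values were seen. Alternatives were other pseudocounts, filters, scalings and tools, a fit over 24 libraries, a block for mice of equal number and each mouse left out. Chosen after the values were seen were the fits without Lac7 mice 4 and 5, without Inv3 mice 1, 2 and 5, and without all of these, the same-seed pairs, and the choice of the 10 most abundant miRNAs anew with each mouse left out. The last came from the first form of the leave-one-out, which was replaced by one that keeps the 10 after its sign was seen to turn, and both are given. No library was left out of the fit as reported.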

Additional observations from a re-analysis of the deposited data

Results flagged for a closer look

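Within each stage, single mice that lay far from the other 5 were looked for in the named miRNAs, by the gap to the nearest mouse over the whole range. In 306 groups of 6 mice, 30 values stood out in this way. The rule makes about 1 in 20 stand out by chance only for independent, normally distributed values. RPM values of the same mice need not be so, and an excess over this rate was not tested. Inv3 mouse 5 held 6 of them and Inv3 mouse 1 held 5.

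In Inv3 mouse 1, miR-181d-5p was highest at 12.01 RPM (nearest mouse 4.5 RPM), miR-322-3p was highest at 48.91 RPM (nearest mouse 30.47 RPM), miR-21a-5p was highest at 49304.9 RPM (nearest mouse 30619.4 RPM), miR-214-5p was highest at 108.12 RPM (nearest mouse 60.42 RPM) and miR-145a-5p was highest at 2187.38 RPM (nearest mouse 1840.84 RPM). In Inv3 mouse 2, let-7d-3p was highest at 173.72 RPM (nearest mouse 58.37 RPM), miR-423-5p was highest at 33.3 RPM (nearest mouse 17.79 RPM), miR-125a-5p was highest at 13952.4 RPM (nearest mouse 8789.85 RPM) and miR-122-5p was highest at 625.56 RPM (nearest mouse 195.27 RPM). In Inv3 mouse 5, miR-223-5p was highest at 83.82 RPM (nearest mouse 50.63 RPM), miR-322-5p was highest at 1982.07 RPM (nearest mouse 1618.96 RPM), miR-486a-5p was highest at 52.39 RPM (nearest mouse 31.85 RPM), miR-1a-3p was highest at 160.01 RPM (nearest mouse 48.47 RPM), miR-133a-3p was highest at 742.92 RPM (nearest mouse 284.43 RPM) and miR-133b-3p was highest at 39.05 RPM (nearest mouse 14.4 RPM). In Inv3 mouse 6, miR-1968-5p was highest at 4.15 RPM (nearest mouse 1.02 RPM), miR-25-3p was highest at 6500.77 RPM (nearest mouse 5776.33 RPM), miR-378c was highest at 72.02 RPM (nearest mouse 59.39 RPM) and miR-542-3p was highest at 311.61 RPM (nearest mouse 252.93 RPM). In Lac7 mouse 1, miR-130a-3p was lowest at 67.56 RPM (nearest mouse 89.35 RPM). In Lac7 mouse 2, miR-127-5p was highest at 18.74 RPM (nearest mouse 8.9 RPM), let-7g-5p was lowest at 1801.3 RPM (nearest mouse 2139.79 RPM) and miR-100-5p was highest at 21.41 RPM (nearest mouse 14.63 RPM). In Lac7 mouse 3, miR-30b-5p was highest at 430.06 RPM (nearest mouse 345.8 RPM). In Lac7 mouse 4, miR-148b-3p was highest at 174.23 RPM (nearest mouse 136.62 RPM), miR-20b-5p was highest at 21.28 RPM (nearest mouse 7.57 RPM) and miR-9-5p was lowest at 27.93 RPM (nearest mouse 48.46 RPM). In Lac7 mouse 5, miR-322-5p was highest at 1031.28 RPM (nearest mouse 814.6 RPM). In Lac7 mouse 6, miR-152-3p was lowest at 560.39 RPM (nearest mouse 752.77 RPM) and miR-122-5p was highest at 54.77 RPM (nearest mouse 2.66 RPM). The cause was not tested for any of these values.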

How the results depend on the processing

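With a pseudocount of 10, 79 miRNAs were called (44 higher and 35 lower), a construction that shrinks low levels. A filter at a mean of 100 RPM left 154 miRNAs, of which 56 were called (28 and 28), and 9 of 15 arm pairs passed. Without a limit on the fold change the numbers were 245, 147 and 98. Without Inv3 mice 1, 2 and 5, 31 miRNAs were called lower and 23 arm pairs passed, and without these and Lac7 mice 4 and 5, 35 were called lower, where fewer samples are compared and the cause was not tested. Of the calls with all mice, 50 were lost without Inv3 mice 1, 2 and 5, 51 without these and Lac7 mice 4 and 5, 64 with a pseudocount of 10 and 7 without Lac7 mice 4 and 5. With edgeR on recovered reads 4 were lost, with DESeq2 17, with size factors 5, with TMM factors 4, with the 24 libraries in 1 fit 0, without a filter 7, with a filter at 10 RPM 33 and with a pseudocount of 0.1 11. No shared call had the opposite sign in any of these or in the fits that leave out 1 mouse.

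With each mouse left out in turn, 128 to 151 miRNAs were called, 82 to 94 higher and 46 to 59 lower, 33 to 38 arm pairs and 34 to 43 same-seed pairs passed, and the difference in the share of the 10 most abundant miRNAs was 0.65 to 1.94 percentage points, passing the exact permutation test without Inv3 mouse 1 (1.94, p = 0.039). With all mice the difference for the 5 most abundant was 3.89 (exact permutation test, p = 0.0043). With the 10 chosen again, which brings in miR-148a-3p for miR-29a-3p, the difference turned to -3.36, -3.61, -4.50, -4.52, -4.57 and -4.34 percentage points without Inv3 mice 1, 2, 3, 4, 5 and 6.

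The numbers of the mice were not taken as pairs. A block for mice of equal number gave 88 calls higher and 53 lower, with 3 calls lost, and 33 arm pairs and 39 same-seed pairs. Libraries of equal number had a mean correlation of -0.137 after the stage means were subtracted, against 0.028 for the other 30 pairs, and 0 of 6 were most like their own number.

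The 12 libraries of 660346 to 1165321 reads limit what can be seen near 1 RPM, where a count of 0 allows up to 4.54 RPM. It was not tested whether the share of any cell type had a part in the differences, and with 1 library per mouse the spread of sampling within a gland is unknown.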
